A study of Bos taurus with 6 samples.

Results

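The let-7 family is a set of mature miRNAs that share the seed, the short stretch near the 5′ end by which a miRNA recognises its target transcripts. Its 9 mature members in the bovine tables were taken by name and are bta-let-7a-5p, bta-let-7b, bta-let-7c, bta-let-7d, bta-let-7e, bta-let-7f, bta-let-7g, bta-let-7i and bta-miR-98. They are 9 of the 1028 miRNAs listed and 9 of the 365 that passed the filter on low reads, so that every member was tested. miR-98 carries a name of its own but belongs to the family by its seed.

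As background, let-7 miRNAs accumulate as cells differentiate and hold back growth-promoting transcripts such as those of RAS genes, MYC and HMGA2. The RNA-binding protein LIN28 blocks the maturation of let-7 precursors, and the level of a mature member therefore depends on processing as well as on transcription. The members are nearly identical in sequence, and let-7c, let-7e and let-7f are each very close to let-7a, as let-7c is to let-7b. The study's alignment to the genome tolerated a mismatch in a read. How reads that fit several members were assigned is not given in the sources used here. The division of reads among the members is therefore less certain than their sum.

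The libraries hold small RNA of bovine granulosa cells in culture, the somatic cells that line the follicle and make oestradiol. The cells came from small antral follicles of 3 to 6 mm, and all were first cultured for 24 h at 37 °C. They were then kept for 24 h at 37 °C (control) or exposed to heat stress at 42 °C (HS), with 3 libraries in each group, numbered 1 to 3 in the labels. The breed, age and number of animals behind each library are not given in the sources used here, nor whether the control and HS libraries of 1 number came from the same pool of cells, so the p-values measure the spread between these libraries.

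Reads assigned to miRNAs ran from 2076239 in control replicate 1, the fewest of any library, to 4590971 in HS replicate 3. They are not the sequencing depth, as the paper lists more quality-passed reads for control replicate 1 than for either other control. Levels are given as normalised CPM, that is reads scaled by the authors with TMM factors to a common library size, and on this scale 3 reads correspond to 0.639 to 1.46, depending on the library. Every member lay far above that level, with 1391 to 333810 reads per member and library, so counting error was small beside the differences between replicates. The granulosa-associated miRNAs miR-202, miR-132, miR-212 and miR-21-5p were present in each library. miR-202, the gonadal one, stood at 1346 to 2749 normalised CPM in control and 1309 to 2095 in HS, while miR-21-5p, which many cell types express, stood at 144234 to 203788 and 165181 to 200262. Markers of other cells were also present. The 7 blood-cell miRNAs summed to 730.2 to 895.4 in control and 676.6 to 799.8 in HS, the 6 epithelial ones to 62.0 to 96.9 and 51.9 to 88.9, the 4 of striated muscle to 55.2 to 245.1 and 61.4 to 200.1, and the 2 of stroma and theca to 69.4 to 88.4 and 64.5 to 76.3. None of the 23 markers was at 0 in all libraries, and none of those tested passed in limma at 2-fold with an adjusted p no higher than 0.2. Their part in the let-7 values was not tested.

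In RefSeq's ARS-UCD2.0 gene annotation, used here for names and neighbours only, the 9 members matched 12 genes. let-7a is made from 3 genes, one beside the genes of let-7f and let-7d, one beside MIR100 and MIR125B-1, and one beside MIRLET7B. let-7f is made from 2 genes, and its second gene lies with MIR98 inside HUWE1, which encodes a ubiquitin ligase. let-7c has MIR99A and MIR125B-2 as neighbours, and let-7e has MIR99B and MIR125A. The let-7g gene lies within WDR82, and no miRNA gene lies within 50 kb of the let-7i gene. Mature let-7a and let-7f reads therefore sum over several genes and cannot be divided among them.

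The family made up 20.9% to 23.2% of all miRNA reads in these cells. Its share was 21.0%, 23.2% and 20.9% in control replicates 1, 2 and 3, and 21.3%, 22.2% and 21.6% in the HS replicates. The means were 21.7% ± 1.29 in control and 21.7% ± 0.472 in HS (SD, n = 3), a difference of 0.0072 percentage points (exact two-sided permutation test, p = 1, where 0.1 is the smallest p that 3 against 3 libraries can give). The HS libraries lay inside the range of the controls. By replicate number, the share was higher in HS by 0.30 and 0.69 percentage points for replicates 1 and 3 and lower for replicate 2 by a difference of -0.97.

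let-7a-5p was the most abundant member and the third most abundant miRNA in every library. It stood at 74537, 72520 and 69443 normalised CPM in the control libraries and at 71885, 70292 and 65528 in the HS libraries. let-7i followed, with 36828, 51492 and 41408 in control and 44380, 46395 and 45381 in HS. The 3 control values of let-7i spanned a wider range than its 3 HS values, which all lay between them.

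let-7f came next, at 30039, 42772 and 35685 normalised CPM in control and 35906, 32676 and 35523 in HS. let-7b stood at 32976, 24236 and 24585 in control, and its HS values were 31974, 32369 and 27625. In control replicate 1 let-7b was at its highest and let-7f at its lowest. let-7a-5p, let-7i, let-7f and let-7b together made up 82.6% ± 0.777 of the family's reads in control and 82.9% ± 0.581 in HS (SD, n = 3).

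The next members in level were let-7e, let-7c, let-7d and let-7g. let-7e had 12533, 11297 and 11403 normalised CPM in control and 11041, 11352 and 10184 in HS. For let-7g the control values were 5819, 8217 and 6835, and the HS values 7099, 7222 and 8270. The groups overlapped for both. let-7c and let-7d, which did not overlap between the groups, are described further on. miR-98, made beside the second let-7f gene, was the least abundant at 679.1, 1177 and 854.2 in control and 714.7, 782.4 and 893.5 in HS, and ranked 74 to 89 among all miRNAs, whereas let-7g, the member just above it, ranked 23 to 32.

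**Figure D1:**
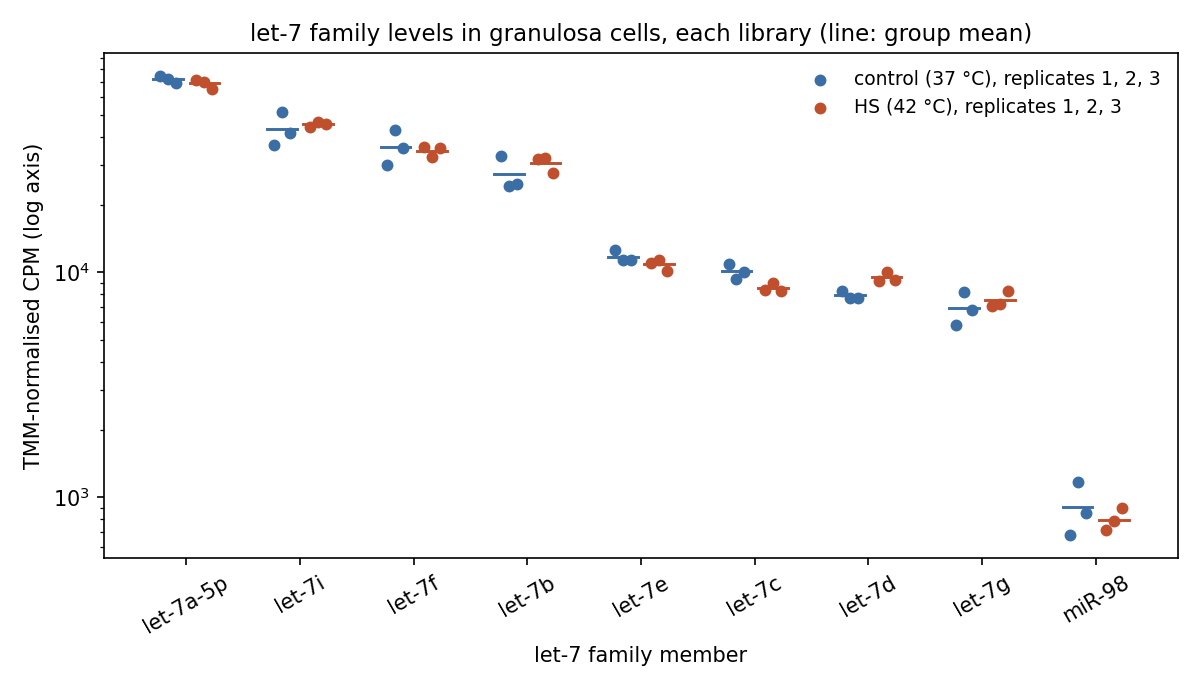
Level of each let-7 member in each library, as normalised CPM on a log axis, with 1 point per library, control and HS set apart by colour, and short lines for the group means. let-7a-5p sits highest at 65528 to 74537 and miR-98 lowest at 679.1 to 1177, and the groups are separate for let-7c and let-7d and overlap for the other 7 members.

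By mean level in control, the order was let-7a-5p, let-7i, let-7f, let-7b, let-7e, let-7c, let-7d, let-7g and miR-98. Not all neighbours in this order were separated by more than the spread between libraries. The control ranges of let-7i and let-7f overlapped, although let-7i was the higher in each library. The ranges of let-7f and let-7b overlapped, with let-7f higher in 2 of 3 libraries, and those of let-7d and let-7g overlapped, with let-7d higher in 2 of 3. In HS no neighbouring ranges overlapped, and the order was the same except that let-7d stood above let-7c. The step from let-7a-5p to let-7i was 1.67-fold in control and 1.53-fold in HS, and the step from let-7g to miR-98 was 7.70-fold and 9.45-fold. Efficiency of adapter ligation differs between miRNAs in such libraries, so an order of reads need not be an order of molecules in the cell.

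No let-7 member passed a threshold for change at 42 °C. In a limma fit across all 365 tested miRNAs, 0 of 9 members changed by 2-fold or more at a Benjamini-Hochberg adjusted p no higher than 0.2, against 3.01% of all tested miRNAs. At an adjusted p under 0.05 the count was also 0 of 9, against 2.19%, and both counts were 0 with edgeR's quasi-likelihood test and with DESeq2 on the recovered reads. At an unadjusted p under 0.05 it was 2 of 9, against 14.5% of all tested miRNAs, and 2 of 9 members had groups that did not overlap, against 20%. With so few members, neither of the latter counts stood apart from the background.

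The members did not move one way. In HS 4 members had the higher mean (let-7b, let-7d, let-7g and let-7i) and 5 the lower (let-7a-5p, let-7c, let-7e, let-7f and miR-98). Their median log2 fold change was -0.046, beside -0.0015 for all tested miRNAs. The median size of the change was 0.13 for the members and 0.20 for all tested miRNAs.

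let-7a-5p averaged 72167 ± 2565 normalised CPM in control and 69235 ± 3308 in HS (SD, n = 3). On the log2(value + 1) scale this was a difference of -0.06 (SE 0.073, 95% interval -0.23 to 0.11, limma adjusted p = 0.839). It was lower in HS for each of the 3 replicate numbers, while the groups overlapped. For let-7i the log2 difference was 0.08 (95% interval -0.22 to 0.38), and for let-7f it was -0.05 (95% interval -0.37 to 0.27). For let-7b it was 0.18 (SE 0.142, 95% interval -0.16 to 0.52, limma adjusted p = 0.656).

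let-7e, which is made beside miR-99b and miR-125a, had a log2 difference of -0.11 (95% interval -0.34 to 0.11). let-7g had 0.13 (95% interval -0.22 to 0.47), and miR-98 had -0.15 (95% interval -0.66 to 0.37). All 9 intervals lay inside a 2-fold change in either direction, and all but that of miR-98 inside a 1.5-fold change. Adjusted p-values of the 9 members ran from 0.255 to 0.959 in limma.

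**Figure D2:**
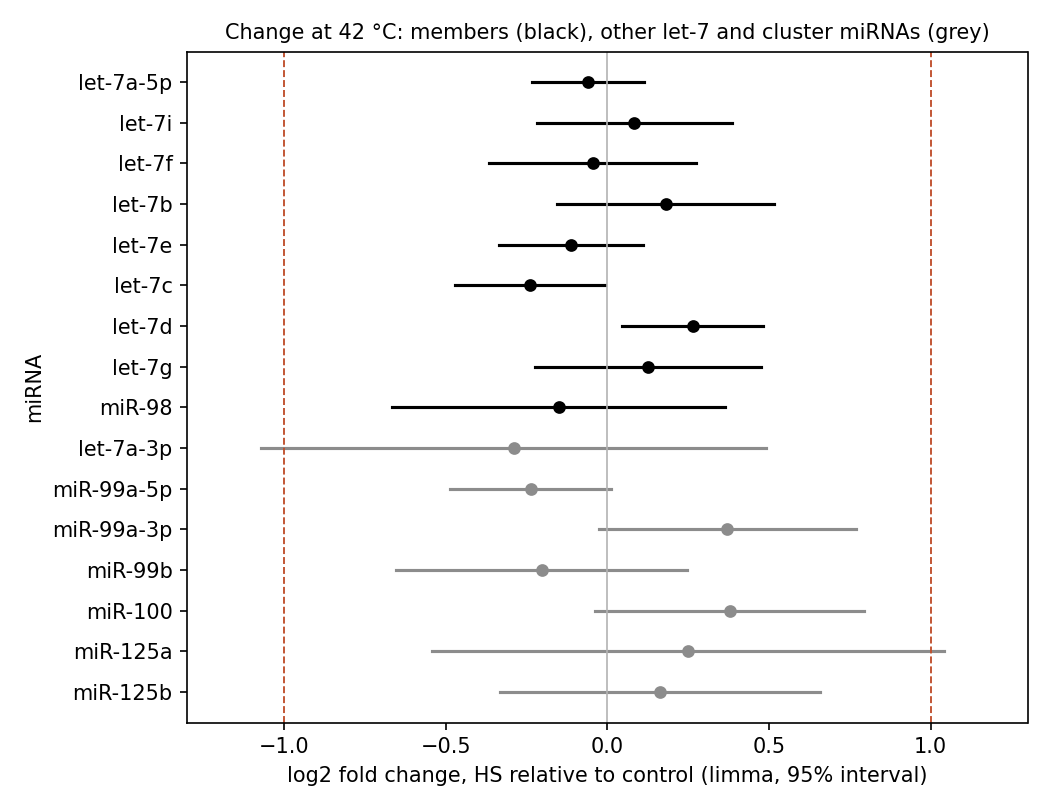
log2 fold change of each let-7 member, HS relative to control on the log2(value + 1) scale, with points for the limma estimate and lines for the 95% interval (members black, bta-let-7a-3p and 6 miRNAs of neighbouring genes grey, dashed lines at 2-fold). The intervals of let-7c (-0.47 to -0.0068) and let-7d (0.046 to 0.48) lie on opposite sides of 0, those of the other 7 members include 0, and all 9 stay between the dashed lines.

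let-7d and let-7c were the members whose groups did not overlap, and they differed in opposite directions. let-7d, made beside let-7a and let-7f genes, stood at 8297, 7726 and 7671 normalised CPM in control and at 9119, 10068 and 9277 in HS. All 3 HS libraries were above all 3 controls, by a factor of 1.20 between the means of 7898 ± 346.7 and 9488 ± 508.4 (SD, n = 3). The log2 difference was 0.26 (SE 0.092, limma adjusted p = 0.255).

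let-7c, made beside miR-99a, stood at 10868, 9352 and 10040 normalised CPM in control and at 8330, 8986 and 8297 in HS. Here all 3 HS libraries lay below all 3 controls, with means of 10087 ± 759.4 in control and 8537 ± 388.6 in HS (SD, n = 3). On the log2(value + 1) scale HS stood at 0.847 of control, a log2 difference of -0.24 (SE 0.098, limma adjusted p = 0.311). Neither member reached an adjusted p of 0.2 or below in this fit. With upper quartile scaling, which moved the median log2 difference of all tested miRNAs to -0.18, let-7c was at -0.42 (limma adjusted p = 0.197) and let-7d at 0.08 (limma adjusted p = 0.804), so the size of either difference depended on the scaling.

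The order of these members was exchanged between the groups. let-7c was above let-7d in each control library and below it in each HS library. The ratio of let-7d to let-7c, which does not depend on how the libraries were scaled, was 0.763, 0.826 and 0.764 in control and 1.09, 1.12 and 1.12 in HS. The SD was 0.0361 in control and 0.0143 in HS (n = 3), and the group means differed by 0.50 on the log2 scale or 1.42-fold (exact two-sided permutation test, p = 0.1, the smallest that this design can give). This pair was singled out after its values were seen, as the largest difference among the 36 ratios between members, so its p carries no weight beyond description. Leaving out any 1 library gave log2 differences of 0.48 to 0.54.

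**Figure D3:**
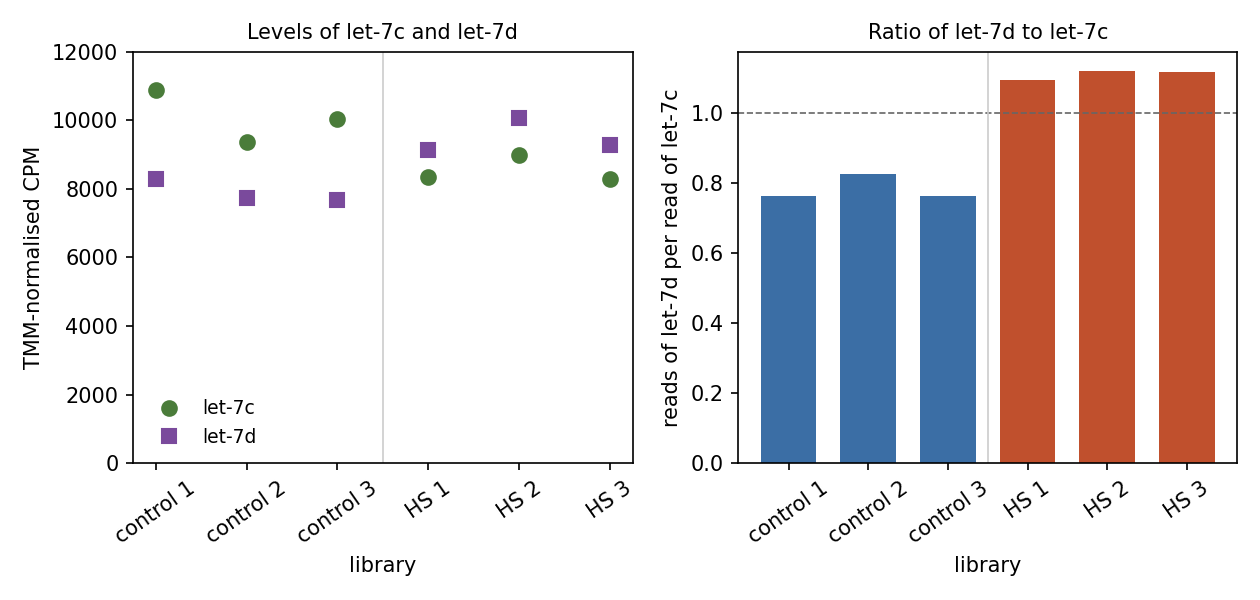
let-7c and let-7d in each library as normalised CPM, and bars for the let-7d to let-7c ratio by library, with a dashed line at a ratio of 1. let-7c is above let-7d in the 3 control libraries and below it in the 3 HS libraries, and the ratio is 0.763 to 0.826 in control and 1.09 to 1.12 in HS.

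Of the 36 ratios between 2 members, 10 did not overlap between the groups (27.8%), against 21.3% of the 66430 ratios between any 2 tested miRNAs. The ratios that share a member are not independent of each other. let-7c entered 4 of the 10, let-7d 3 and let-7e 3. The ratio of let-7b to let-7c came second in size, at 3.03, 2.59 and 2.45 in control and 3.84, 3.60 and 3.33 in HS. The ratio of let-7d to let-7e was 0.662, 0.684 and 0.673 in control and 0.826, 0.887 and 0.911 in HS. In the ratio of let-7a-5p to let-7d the HS libraries were the lower ones, with 8.98, 9.39 and 9.05 in control and 7.88, 6.98 and 7.06 in HS.

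As shares of the family's reads, let-7a-5p made up 33.4% ± 1.68 in control and 31.9% ± 0.777 in HS (SD, n = 3), a difference of -1.52 percentage points (exact two-sided permutation test, p = 0.3). let-7i made up 19.9% ± 2.59 and 20.9% ± 0.705, let-7f 16.7% ± 2.32 and 16.0% ± 1.03, and let-7b 12.6% ± 2.56 and 14.1% ± 0.878, with overlapping groups in each case. let-7d took 3.90%, 3.38% and 3.69% in control and 4.14%, 4.57% and 4.40% in HS, while let-7c took 5.11%, 4.09% and 4.83% in control and 3.78%, 4.08% and 3.93% in HS. Both were separate between the groups, let-7c by a narrow margin through control replicate 2. miR-98 made up under 1% of the family in each library.

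Because let-7c, let-7e and let-7f are very close to let-7a in sequence, their reads were also pooled with it, which removes any exchange of reads among these 4 but not between let-7b and let-7c. The pooled share of the family was 60.2%, 59.4% and 60.9% in control and 57.7%, 56.0% and 56.7% in HS. All 3 HS libraries lay below all 3 controls, with means of 60.2% ± 0.729 and 56.8% ± 0.843 (SD, n = 3) and a difference of -3.38 percentage points (exact two-sided permutation test, p = 0.1, the smallest possible). With let-7b added to the pool, a choice made after the values were seen, the groups overlapped, at 75.7%, 70.0% and 72.7% in control and 72.2%, 70.7% and 69.7% in HS (exact two-sided permutation test, p = 0.4). The separation of the groups therefore depended on which members were pooled.

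**Figure D4:**
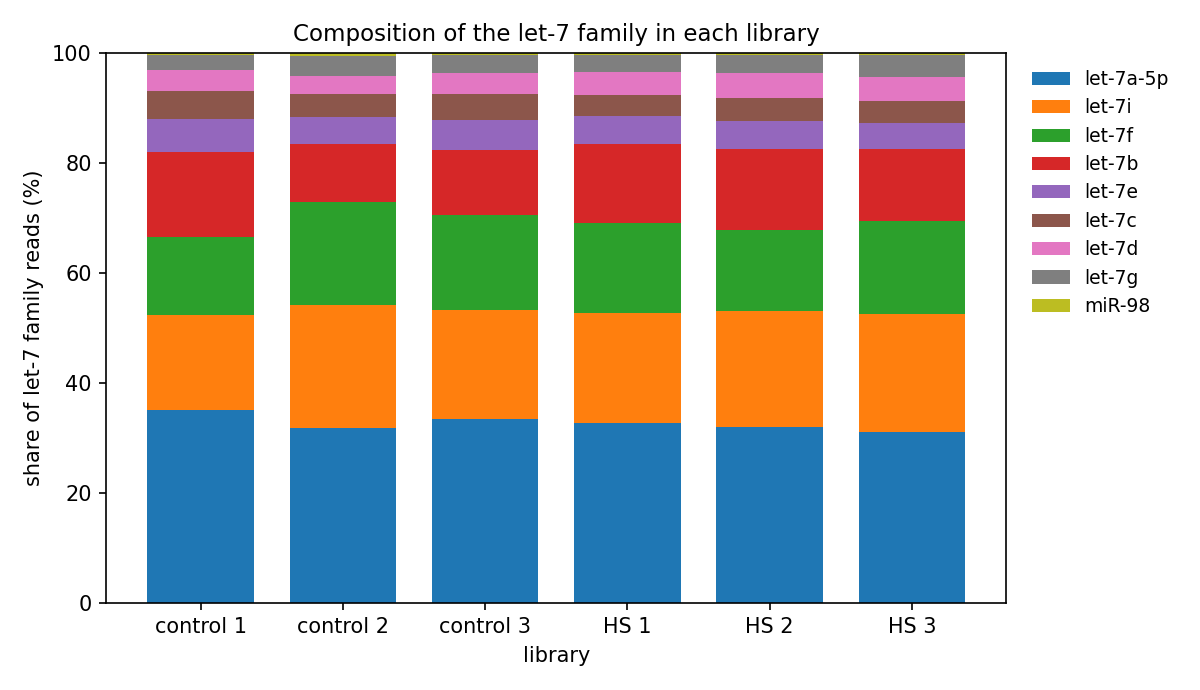
Share of the let-7 family's reads taken by each member in each library, in percent, as stacked bars that start at 0. let-7a-5p is the largest in each bar, and let-7a-5p, let-7c, let-7e and let-7f together take 59.4% to 60.9% in control and 56.0% to 57.7% in HS.

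The control libraries differed more among themselves than the HS libraries did. The median SD on the log2 scale was 0.245 for the members in control and 0.076 in HS, beside 0.278 and 0.196 for all tested miRNAs. For 7 of the 9 members the SD was smaller in HS, as it was for 64.7% of all tested miRNAs.

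let-7f, let-7g, let-7i and miR-98 varied together over the libraries, a pattern described after the values were seen. They were all at their lowest in control replicate 1, by log2 differences from the other controls of -0.38, -0.36, -0.33 and -0.56. let-7b was higher there by 0.43, let-7c by 0.17, let-7e by 0.14, let-7d by 0.11 and let-7a-5p by 0.07, while the median over all tested miRNAs was 0.001. In control replicate 2 let-7f, let-7g, let-7i and miR-98 lay above their means over the 6 libraries, by log2 differences of 0.28, 0.19, 0.22 and 0.49. let-7b and let-7d lay below theirs in control replicate 2, at -0.25 and -0.16. Control replicate 1 also had the fewest reads assigned to miRNAs, and the part of this in the pattern was not tested. Over the 6 libraries, which the members share together with their depth and scaling, Pearson's r between any 2 of let-7f, let-7g, let-7i and miR-98 was 0.776 to 0.898, and between these and the other 5 members it was -0.846 to 0.135. Among the other 5, r ran from -0.609 to 0.878, so they did not form a set that varied together.

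**Figure D5:**
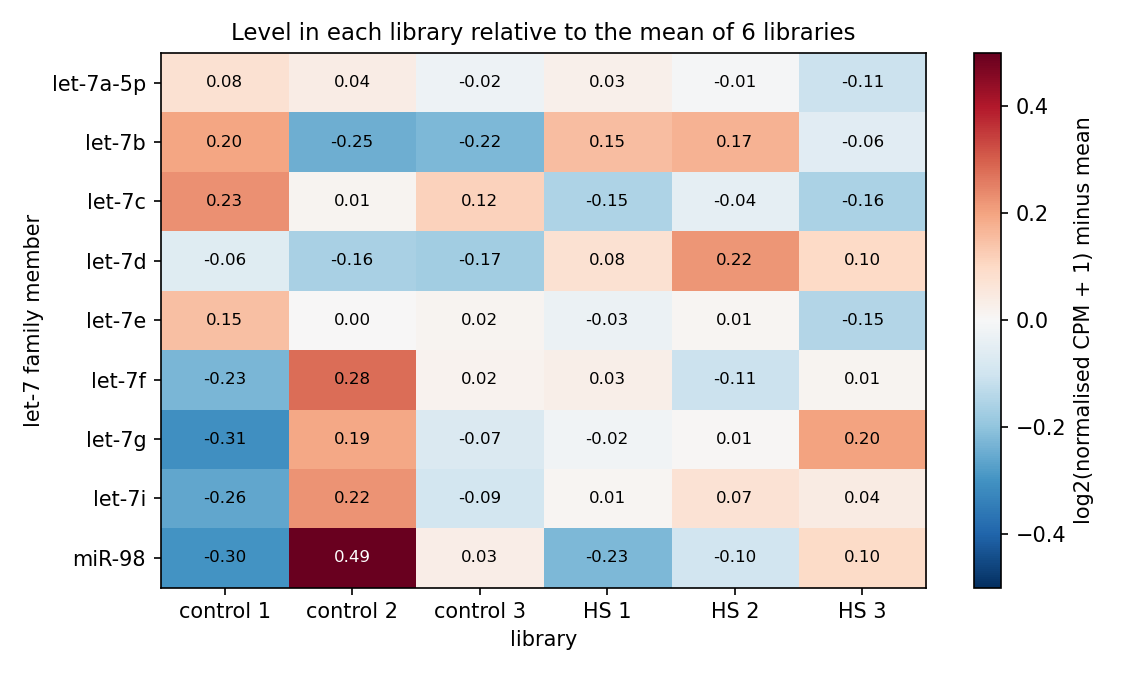
Deviation of each let-7 member in each library from its mean over the 6 libraries, on the log2 scale, as a colour map with 1 row per member and 1 column per library. In control replicate 1 let-7f, let-7g, let-7i and miR-98 lie below their means, as does let-7d by less, at -0.06. let-7c (0.23), let-7b (0.20), let-7e (0.15) and let-7a-5p (0.08) lie above theirs in that library.

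bta-let-7a-3p, from the strand opposite let-7a-5p, was the other let-7 identifier in the tables. Mature let-7a-5p sums over 3 genes, and which of them give this 3p entry was not examined, so their ratio is not that of a single hairpin. The 3p entry had 11.2, 16.3 and 25.6 normalised CPM in control and 16.6, 10.3 and 14.5 in HS, from 23 to 92 reads per library. The ratio of let-7a-5p to let-7a-3p was 6638, 4451 and 2709 in control and 4333, 6802 and 4527 in HS. The groups overlapped, and the 3p entry was rarer by a factor of 2709 to 6802 across the 6 libraries.

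Of 6 miRNAs of the miR-99, miR-100 and miR-125 genes that neighbour let-7 genes, 0 passed the 2-fold threshold in limma (adjusted p no higher than 0.2), against 3.01% of all tested miRNAs. miR-2443 and miR-135a, with genes within 50 kb of let-7a and let-7b or of let-7g, had log2 differences of -0.28 and -0.15 with overlapping groups (limma adjusted p = 0.732 and 0.853). For let-7c, the neighbour miR-99a-5p differed by a similar amount, with 3727, 3620 and 3756 normalised CPM in control and 3359, 3206 and 2876 in HS. Its log2 difference was -0.24 (limma adjusted p = 0.374), as for let-7c itself, and the ratio of let-7c to miR-99a-5p was 2.92, 2.58 and 2.67 in control and 2.48, 2.80 and 2.88 in HS. The 2 geometric means of that ratio differed by a factor of 0.998, and the groups overlapped.

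miR-100, a neighbour of one let-7a gene, had 295.4, 261.3 and 226.2 normalised CPM in control and 367.6, 368.5 and 284.2 in HS (log2 difference 0.38, limma adjusted p = 0.409). miR-125a, a neighbour of let-7e, was the least even of the partners, at 50550, 18952 and 38887 in control and 40432, 43146 and 35907 in HS. The ratio of let-7e to miR-125a accordingly stood at 0.596 in control replicate 2 and at 0.248 to 0.293 in the other 5 libraries. miR-99b and miR-125b had log2 differences of -0.20 and 0.16 (limma adjusted p = 0.744 and 0.839). let-7f and miR-98, which share a gene pair, kept a ratio of 36.4 to 44.2 in control and 39.8 to 50.2 in HS, with overlapping groups.

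For miR-202, a gonadal miRNA whose arm the identifier does not name, the normalised CPM was 1346, 2749 and 2726 in control. In HS it was 2095, 1309 and 1982, and the groups overlapped. bta-miR-3596, whose gene overlaps MIRLET7B, was listed at 0 in every library and was named after its values were seen.

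The miRNAs most alike to the family's summed level were named by the highest Pearson's r over the 6 libraries. They were miR-2483-3p (r = 0.941), miR-185 (r = 0.932), miR-574 (r = 0.930), miR-30b-3p (r = 0.908) and miR-497 (r = 0.896). Like the family, which reached 228789 normalised CPM there against 207925 to 220449 in the other 5 libraries, all 5 were at their highest in control replicate 2. These values share the libraries, their depth and their scaling, and the 5 were chosen from all tested miRNAs for this likeness. miR-30b-3p stood at only 5.85 to 7.82 normalised CPM, so its r rests on few reads.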

How the data were processed

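Small RNA libraries of 6 granulosa cell cultures were analysed, 3 control and 3 HS. RNA input was 100 ng, and the QIAseq kit used adds unique molecular identifiers before 16 cycles of PCR. According to the submitters' processing notes and the study's methods, the authors used Cutadapt 1.11 for trimming, collapsed reads that shared a molecular identifier, and aligned them with Bowtie2 2.2.2 (UMD3.1). miRNAs were those of miRBase, and edgeR supplied the trimmed-mean (TMM) normalisation. The deposited signal holds 1 TMM-normalised CPM value per miRNA and library. TMM assumes that most miRNAs do not change.

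The deposited values were whole multiples of 1 step per library (100% of values, tolerance 0.01 of a read). This gave the reads assigned to miRNAs in each library. Implied TMM factors were 0.965 to 1.02. miRNAs with low reads were removed with filterByExpr at its defaults (edgeR 4.0.16), and log2(value + 1) was tested with limma 3.58.1 in R 4.3.3 (eBayes with trend, no covariate), with Benjamini-Hochberg adjustment over all 365 tested miRNAs. Fold changes are on this scale. Ratios and shares were compared by exact permutation tests in Python 3.11.15 with scipy 1.17.1. Shares and ratios used recovered reads. edgeR's quasi-likelihood test and DESeq2 1.42.0 on the recovered reads were alternatives, with other scalings, filters and pseudocounts, fits with a replicate block, and fits leaving out each library in turn. The limma step was tested on simulated reads.

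Named miRNAs were the members, other let-7 identifiers, miRNAs of the miR-99, miR-100 and miR-125 genes beside let-7 genes, miR-202 and the 5 most alike in level. The members, lists and tests were chosen with earlier results of these data known. The rule for named miRNAs also provided for a search for other miRNAs with the same seed, which was not run, since no table of mature sequences was used here. miR-2443 and miR-135a were added after the values were seen, as was the pool of let-7 members with let-7b. RefSeq positions are of another assembly than UMD3.1 and are not given. Floors of 3 reads cover counting error only.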

Additional observations from a re-analysis of the deposited data

How the results depend on the processing

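Across 18 alternatives, 12 with all libraries and 6 leaving out 1 library, no member passed at 2-fold with an adjusted p of 0.2 or below, or at an adjusted p under 0.05. Of 162 member log2 differences, 156 kept their sign and 6 changed it. With upper quartile factors, which moved the median of all tested miRNAs to -0.18, let-7b was at -0.0056, let-7g at -0.061 and let-7i at -0.10, so their signs are relative to that shift. Leaving out 1 library gave -0.17 to 0.083 for let-7f (positive without control replicate 2), -0.025 to 0.22 for let-7i (negative without control replicate 1) and -0.34 to 0.059 for miR-98 (positive without control replicate 2). let-7g ran from 0.0034 without control replicate 1 to 0.25 without control replicate 2, and let-7b from 0.10 to 0.33 (without control replicate 1, limma adjusted p = 0.208). let-7a-5p (-0.25 to -0.02), let-7c (-0.42 to -0.18), let-7d (0.08 to 0.30) and let-7e (-0.30 to -0.07) kept their sign under the 18 alternatives, the lowest value of each coming from upper quartile factors, and the smallest adjusted p of any member ran from 0.197 (let-7c, upper quartile factors) to 0.651. Members whose groups did not overlap numbered 2 to 5, with 5 of 9 without control replicate 2, where 33.4% of all tested miRNAs did not overlap. That share was 26% to 37.5% over the 6 omissions, against 20% with all libraries. The difference in the family's share of all reads ran from -0.38 to 0.75 percentage points and was negative without control replicate 1, control replicate 3 or HS replicate 2. The let-7a-5p share of the family stayed lower in HS, by -2.36 to -0.68 percentage points.

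The main fit did not take the replicate numbers as pairs, and the sources do not say whether they mark the same pool of cells. Libraries of the same number did not deviate together in every pair. For replicates 1, 2 and 3, r was 0.42, -0.12 and 0.62 over all tested miRNAs and 0.60, -0.79 and 0.55 over the members. These values do not settle whether the numbers are pairs. With a replicate block, 0 members passed in limma or edgeR, the smallest adjusted p of a member in limma was 0.258, and the count over all miRNAs went from 11 to 10 in limma and from 10 to 12 in edgeR. Paired by number, the family's share differed by 0.0072 percentage points (p = 1 by an exact test over sign flips, where 0.25 is the smallest p it can give).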

Other observations

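The arms of miR-99a, the hairpin encoded beside let-7c, differed in opposite directions between the groups, a comparison made after the values were seen. miR-99a-5p was lower in HS, while miR-99a-3p stood at 12.2, 12.8 and 12.5 normalised CPM in control and at 15.9, 17.1 and 16.4 in HS (log2 difference 0.37, limma adjusted p = 0.388). The ratio of the 5p to the 3p arm was 305, 282 and 300 in control and 211, 187 and 175 in HS, with groups that did not overlap, as in 21.3% of the ratios between any 2 tested miRNAs (exact two-sided permutation test, p = 0.1, the smallest that 3 against 3 libraries can give). The 3p arm had few reads, 25, 59 and 45 in the control libraries against 48, 63 and 77 in the HS libraries. Since the ratio was chosen for its values, its p carries no weight beyond description. Neither arm reached an adjusted p of 0.2 or below.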
